A study of Mus musculus with 15 samples.

Results

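A set of 10 genes that mark T cells and natural killer (NK) cells was followed through a course of skin wounding in the mouse. They are the CD3 chain genes Cd3d, Cd3e and Cd3g, the T and NK cell surface gene Cd2, the kinase gene Lck, the co-receptor genes Cd4 and Cd8a, the cytokine receptor gene Il2rb and the cytotoxic granule genes Nkg7 and Gzma. They were chosen by symbol as known marker genes, with earlier results of these data known, and they are 10 of the 30281 named genes in the files. A filter on weakly expressed genes left 17136 genes for testing, and all 10 passed it. The study sequenced mRNA from the skin of C57BL/6 mice at day 0, 1, 3, 5 and 7, and each of these 5 times has 3 libraries. All 15 are labelled with wounding as the stress, and since this holds at day 0 too, those libraries are named by their day and not as unwounded skin. Every group shares the strain and the tissue, which was cleaned of muscle and fat before freezing. No label states whether the replicates of a time are different animals. The p-values below therefore reflect the variation among these libraries, part or all of which may be technical.

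T cells recognise antigen through a receptor whose chains cannot signal alone. The CD3 chains carry the signal inward, and Lck, held by the co-receptors CD4 or CD8, phosphorylates them. NK cells lack that receptor and kill through granules of perforin and granzymes, which cytotoxic T cells also hold, and interleukin-15 acting through the receptor chain encoded by Il2rb keeps them alive. Mouse epidermis holds a resident network of γδ T cells, and the dermis holds αβ and γδ T cells, while NK cells are few. Levels are given as CPM, the estimated counts of a gene relative to the total of its library, with totals adjusted by TMM (trimmed mean of M-values) factors. In bulk skin, fewer cells of a type and less RNA per cell cannot be told apart. Transcript length was not used, so CPM values of different genes do not compare their transcript numbers. Sums, shares and ratios of CPM over several genes are given to compare libraries, and their size also depends on transcript length.

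Library totals ran from 38062562 to 60450396 estimated counts, and the members had between 28 (Cd8a) and 2031 (Cd4) counts in a library. A few libraries were unlike their replicates. Day 0 replicate 1 held the wound keratin Krt6a at 708 CPM, against 54.3 and 95.2 in the other day 0 libraries, and it was the lowest day 0 library for 8 of the 10 members. Day 0 replicate 3 was the highest day 0 library for all 10. Lef1, a gene of hair follicle matrix as well as of T cells, reached 39.0 CPM in replicate 2 of day 5 and 38.3 CPM in replicate 3 of day 7, and lay between 1.23 and 6.19 CPM in the other 13 libraries. Each of those libraries was the lowest of its time for 7 of the 10 members. Beside the members, the T cell receptor α constant gene Trac, which marks αβ T cells, was detected in every day 0 library, at 0.895, 0.784 and 1.71 CPM.

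The 3 CD3 genes lie together on chromosome 9, and the stretches before their transcription starts are shown because the levels of these genes correlated across the libraries, beside those of Lck and Nkg7, which fell at day 1. RefSeq (GRCm38.p6) gave starts for 7 of the 10 members, with none for Cd2, Cd4 and Il2rb. Cd3g and Cd3d are read in opposite directions from starts 1355 bases apart, and the start of Cd3e lies 27825 bases beyond that of Cd3d. Each run below is the 250 bases before a start, 5′ to 3′ on the strand of the gene, with capitals marking matches to short motifs of factors that act in T and NK cells. The windows are chr9:44981536-44981785 on the plus strand (Cd3d), chr9:45009612-45009861 on the minus strand (Cd3e), chr9:44980432-44980681 on the minus strand (Cd3g), chr4:129573642-129573891 on the minus strand (the farther upstream of the 2 Lck starts) and chr7:43436888-43437137 on the plus strand (Nkg7).
Cd3d: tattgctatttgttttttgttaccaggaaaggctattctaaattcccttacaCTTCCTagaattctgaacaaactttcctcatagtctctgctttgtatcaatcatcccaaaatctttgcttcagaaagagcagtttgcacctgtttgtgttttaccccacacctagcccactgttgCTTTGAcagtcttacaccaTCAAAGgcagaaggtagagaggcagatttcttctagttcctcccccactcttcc
Cd3e: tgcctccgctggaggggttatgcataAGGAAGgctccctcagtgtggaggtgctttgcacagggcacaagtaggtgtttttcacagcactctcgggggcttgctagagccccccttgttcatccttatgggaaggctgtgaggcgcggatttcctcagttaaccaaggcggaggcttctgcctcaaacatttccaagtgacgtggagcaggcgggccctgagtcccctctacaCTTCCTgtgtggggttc
Cd3g: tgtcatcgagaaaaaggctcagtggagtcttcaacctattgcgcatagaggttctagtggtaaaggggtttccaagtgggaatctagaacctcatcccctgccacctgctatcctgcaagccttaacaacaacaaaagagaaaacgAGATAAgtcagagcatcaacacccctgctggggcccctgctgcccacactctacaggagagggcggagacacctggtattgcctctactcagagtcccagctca
Lck: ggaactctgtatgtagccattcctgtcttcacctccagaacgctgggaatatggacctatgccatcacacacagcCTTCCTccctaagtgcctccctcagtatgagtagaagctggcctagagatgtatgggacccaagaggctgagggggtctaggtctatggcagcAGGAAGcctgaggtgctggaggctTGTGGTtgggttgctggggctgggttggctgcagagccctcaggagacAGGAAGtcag
Nkg7: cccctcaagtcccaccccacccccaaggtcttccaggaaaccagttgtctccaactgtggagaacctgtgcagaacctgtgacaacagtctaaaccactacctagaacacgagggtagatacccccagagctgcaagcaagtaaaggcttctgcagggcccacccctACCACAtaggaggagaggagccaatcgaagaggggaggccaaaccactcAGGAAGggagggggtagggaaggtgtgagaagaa
The motifs searched on both strands were AGGAAG for ETS factors, TGTGGT for RUNX factors, AGATAA for GATA factors, CAGCTG for E proteins and CTTTGA for TCF factors. The ETS letters occurred in 5 of the 8 member windows (both Lck starts, Cd3d, Cd3e and Nkg7) and in 29.5% of all 32851 windows of that length. The RUNX letters occurred in 3 member windows (Lck upstream, Nkg7 and Gzma) and in 14.0% of all. The TCF letters were found in the Cd3d window alone, against 13.8% of all, and the GATA letters in that of Cd3g alone, against 9.99% of all. The E protein letters were in none of the 8, against 13.0% of all. A match describes these letters only, and was not tested as a binding site.

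At day 1, 9 of the 10 T and NK cell genes were at their lowest mean level. Against day 0, 5 of the 10 fell (Cd3d, Cd3e, Cd2, Lck and Nkg7), by between 2.20-fold and 3.70-fold, where 3.36% of all genes tested were called lower and 4.22% higher (edgeR quasi-likelihood test, Benjamini-Hochberg adjusted p under 0.05, 3 libraries a time). None rose. In 9 of the 10 every day 1 library lay below every day 0 library, against 18.0% of all genes, and the exception was Cd8a. The median log2 fold change of the 10 was -1.33, beside -0.01 over all genes tested. The means were highest at day 0 for 8 members.

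The CD3 genes encode the δ, ε and γ chains that couple the T cell receptor to signalling. Cd3d was at 2.72, 3.92 and 5.40 CPM in the day 0 libraries (replicates 1, 2 and 3, in this order throughout) and at 1.62, 1.98 and 1.06 in the day 1 libraries. The groups did not overlap, and the log2 fold change was -1.37 ± 0.30 (SE), with an edgeR adjusted p of 0.0215. Later it was at 2.41, 1.95 and 2.90 at day 3, 2.36, 2.57 and 2.85 at day 5 and 3.72, 2.90 and 2.24 at day 7, with at least 1 library of each time inside the day 0 range. Cd3e had 3.45, 5.82 and 6.49 CPM at day 0 and 1.91, 2.35 and 1.39 at day 1. Its log2 fold change was -1.48 ± 0.37, with an edgeR adjusted p of 0.0341. Its later levels were 2.61, 1.90 and 2.47 at day 3, 2.24, 2.70 and 4.33 at day 5 and 4.44, 5.20 and 2.09 at day 7. All 3 day 3 libraries still lay below every day 0 library, and the day 7 libraries spread across most of the day 0 range. Cd3g had 8.89, 12.7 and 14.6 CPM at day 0 and 6.54, 6.89 and 4.97 at day 1, again with no overlap. Its log2 fold change of -0.97 ± 0.28 narrowly missed the threshold, at an edgeR adjusted p of 0.0507. It was at 8.92, 4.26 and 6.98 CPM at day 3, 7.78, 7.53 and 10.9 at day 5 and 9.42, 12.4 and 8.64 at day 7. For all 3 genes the order of the means ran day 0, 7, 5, 3 and 1 from high to low, and neighbours in that order overlapped in their libraries.

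Cd2, an adhesion and costimulatory receptor of T and NK cells, was at 3.28, 4.07 and 7.39 CPM at day 0 and 1.68, 1.77 and 1.26 at day 1. The groups did not overlap, and the log2 fold change was -1.64 ± 0.41 with an edgeR adjusted p of 0.034. It stood at 2.15, 1.97 and 2.22 at day 3, 2.00, 1.19 and 3.58 at day 5 and 4.04, 3.17 and 1.90 at day 7. The day 3 libraries, close to one another, were all below day 0, and at day 5 replicate 2 was below the lowest day 1 library. Lck, the kinase that phosphorylates the CD3 chains, was at 4.36, 4.68 and 9.73 CPM at day 0, where replicate 3 was the high one, and at 2.50, 2.96 and 3.06 at day 1. Its log2 fold change was -1.14 ± 0.28, with an edgeR adjusted p of 0.0337. Each later time had at least 1 library inside the day 0 range, with 3.72, 5.02 and 3.94 at day 3, 4.06, 4.38 and 6.28 at day 5 and 4.54, 4.29 and 4.53 at day 7.

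The cytotoxic granule genes had the widest spread at day 0 among the 10, as the highest library over the lowest. Nkg7, which encodes a granule membrane protein, was at 3.41, 5.67 and 12.9 CPM at day 0 and 2.12, 2.23 and 1.59 at day 1. All day 1 libraries were below day 0, with a log2 fold change of -1.89 ± 0.44 and an edgeR adjusted p of 0.0276. Without day 0 replicate 3, the highest of the 15, the log2 difference was -1.20 and was not called. It was at 2.95, 4.59 and 3.51 at day 3, 3.23, 2.18 and 5.39 at day 5 and 4.54, 4.18 and 3.17 at day 7, with at least 1 library of each time inside the day 0 range. Gzma, a granule serine protease of NK and cytotoxic T cells, had 4.75, 5.72 and 22.5 CPM at day 0 and 2.51, 1.59 and 2.49 at day 1. Day 0 replicate 3 was far above the others, and the log2 fold change of -2.32 ± 0.69 did not pass, at an edgeR adjusted p of 0.0574. Without that library the log2 difference was -1.26. Its libraries were at 1.83, 7.76 and 4.43 at day 3 and 3.72, 1.66 and 6.95 at day 5. At day 7 they were at 3.95, 2.20 and 2.48, each below every day 0 library, with a log2 difference from day 0 of -1.93 ± 0.68 and an edgeR adjusted p of 0.0943. Without day 0 replicate 3 that difference was -0.84.

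Il2rb encodes the receptor chain shared by interleukin-2 and interleukin-15. It had 9.21, 8.53 and 19.0 CPM at day 0 and 6.38, 5.84 and 3.32 at day 1. The groups did not overlap, and the log2 fold change of -1.24 ± 0.42 did not pass (edgeR adjusted p = 0.0839). At day 3, 5 and 7 the libraries were at 7.02, 9.89 and 7.75, at 7.15, 4.14 and 9.94 and at 10.4, 7.51 and 4.22 CPM, with at least 1 library of each time inside the day 0 range.

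The co-receptor genes come last. Cd4 marks helper T cells, and in the mouse some dendritic cells and tissue macrophages carry it too. It was at 7.64, 14.9 and 16.4 CPM at day 0 and at 4.67, 4.63 and 6.56 at day 1, lower in all libraries but not past the threshold (log2 fold change -1.29 ± 0.43, edgeR adjusted p = 0.0792). At day 3 it was at 34.2, 16.6 and 16.4, each library above 2 of the 3 day 0 libraries and above all of day 1, with replicate 1 the highest of the 15. Against day 1 the log2 difference at day 3 was 2.08 ± 0.44, with an edgeR p of 0.000402 and an adjusted p of 0.104, so that it was not called. At day 5 the libraries were at 18.4, 6.97 and 18.7 and at day 7 at 12.6, 10.03 and 6.46, overlapping day 0. Cd4 was the 1 member of the 10 called over all times together, with an edgeR adjusted p of 0.0427, where 13.9% of all genes were called, and 8 of the 10 had an unadjusted p under 0.05, against 35.2% of all genes. Without the gene filter the edgeR adjusted p of Cd4 was 0.0531, and with a model term for the replicate number it was 0.0763. It ranged from 0.0188 to 0.117 when 1 library was left out. In those fits it was called without day 0 replicate 1, day 5 replicate 2, day 7 replicate 1 or day 7 replicate 3, and not called without any 1 of the other 11.

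Cd8a, a chain of the co-receptor of cytotoxic T cells, had 1.45, 0.709 and 1.87 CPM at day 0 and 1.498, 1.20 and 1.14 at day 1. Its libraries were at 1.13, 1.29 and 1.26 at day 3, 1.24, 0.783 and 1.85 at day 5 and 1.35, 1.91 and 1.45 at day 7, overlapping day 0 at every time. The log2 difference at day 1 was -0.08 ± 0.35, with a 95% interval of -0.86 to 0.71, so falls and rises of moderate size both lay within it. Cd8b1, the other chain of CD8, was at 0.410, 0.354 and 1.35 CPM at day 0 and 0.160, 0.321 and 0.367 at day 1, and its log2 difference of -1.32 ± 0.55 was not called (edgeR adjusted p = 0.149).

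**Figure D1:**
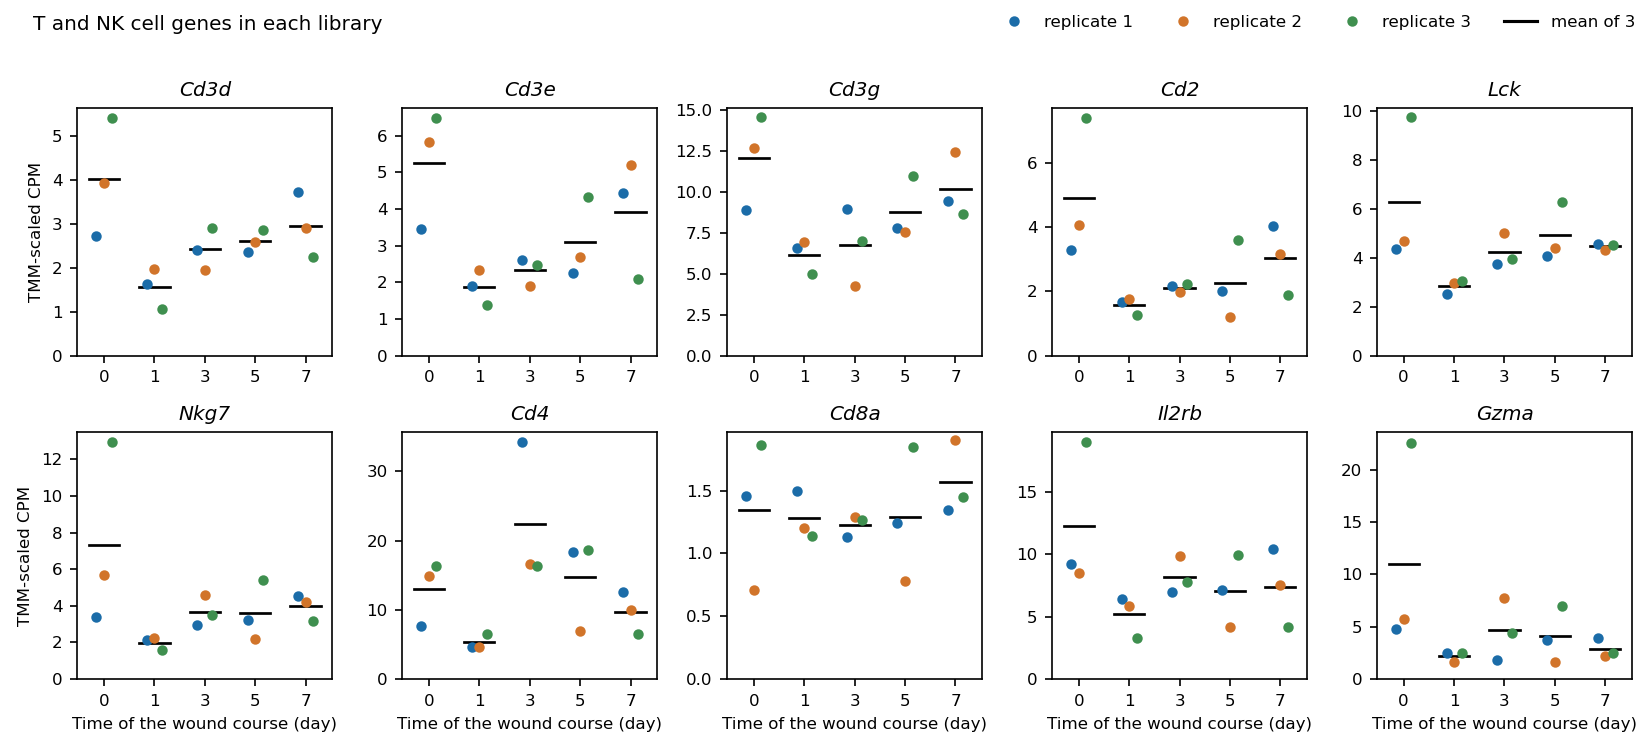
TMM-scaled CPM (vertical axis, from 0, a scale of its own per gene) of the 10 T and NK cell genes at day 0, 1, 3, 5 and 7 (horizontal axis); each point is 1 library, coloured by replicate number, and each bar the mean of 3. In 9 panels, all but Cd8a, the day 1 points lie below the day 0 points, and Cd4 reaches its highest value, 34.2 CPM, at day 3.

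The calls at day 1 depended on which libraries were kept, on the tool and on the model. By DESeq2, 9 of the 10 were called lower (all but Cd8a), where it called 7.70% of all genes lower. By edgeR, 9 of the 10 had an unadjusted p under 0.05, against 27.0% of all genes. Leaving out day 0 replicate 1 raised the edgeR count to 8. Without day 0 replicate 2, day 0 replicate 3, day 1 replicate 1 or day 1 replicate 3 no member was called, and without day 1 replicate 2 Cd3d was the 1 call. A fit of the day 0 and day 1 libraries alone called Cd3e, Cd2 and Cd3g, with adjusted p of 0.0536 for Cd3d, 0.075 for Lck and 0.0605 for Nkg7. An edgeR model with a term for the replicate number called 2, Cd3d and Lck. Its edgeR adjusted p was 0.0593 for Cd3e, 0.0599 for Cd2 and 0.0533 for Nkg7. The calls over all genes also changed, from 1299 with every library to between 33 and 2411. The log2 fold changes of the 5 called genes ran from -2.23 to -0.68 over these fits. When replicate 1 alone stood for day 0 they were -0.79 for Cd3d, -0.86 for Cd3e, -1.05 for Cd2, -0.61 for Lck and -0.77 for Nkg7, and none was called.

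After day 1 the means of 8 members, all but Cd4 and Cd8a, lay between those of day 1 and day 0, and edgeR called none of them against day 0. At day 3 the median log2 difference from day 0 was -0.79, and 0 of 10 were called by edgeR, which called 0.788% of all genes. Of the 10, 5 had an unadjusted p under 0.05 (Cd3d, Cd3e, Cd3g, Cd2 and Nkg7, all lower), against 15.8% of all genes, and DESeq2 called Cd3e lower, where it called 2.09% of all genes lower. The libraries of Cd3e and Cd2 lay wholly below day 0, as did 12.4% of all genes. At day 5 the median was -0.70, with 0 of 10 called by edgeR (0.502% of all genes) and by DESeq2 (6.83%). Cd2 and Nkg7 had an unadjusted p under 0.05, a share of the 10 near the 19.7% of all genes, and no member's libraries lay wholly below day 0, as those of 13.8% of all genes did. At day 7 the median was -0.47, with 0 of 10 called by edgeR, which called 7.05% of all genes. Gzma was the 1 member with an unadjusted p under 0.05, against 27.9% of all genes, and the 1 member with libraries wholly below day 0, against 15.3%, and DESeq2 called it lower, with 8.74% of all genes. These comparisons share the day 0 libraries.

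**Figure D2:**
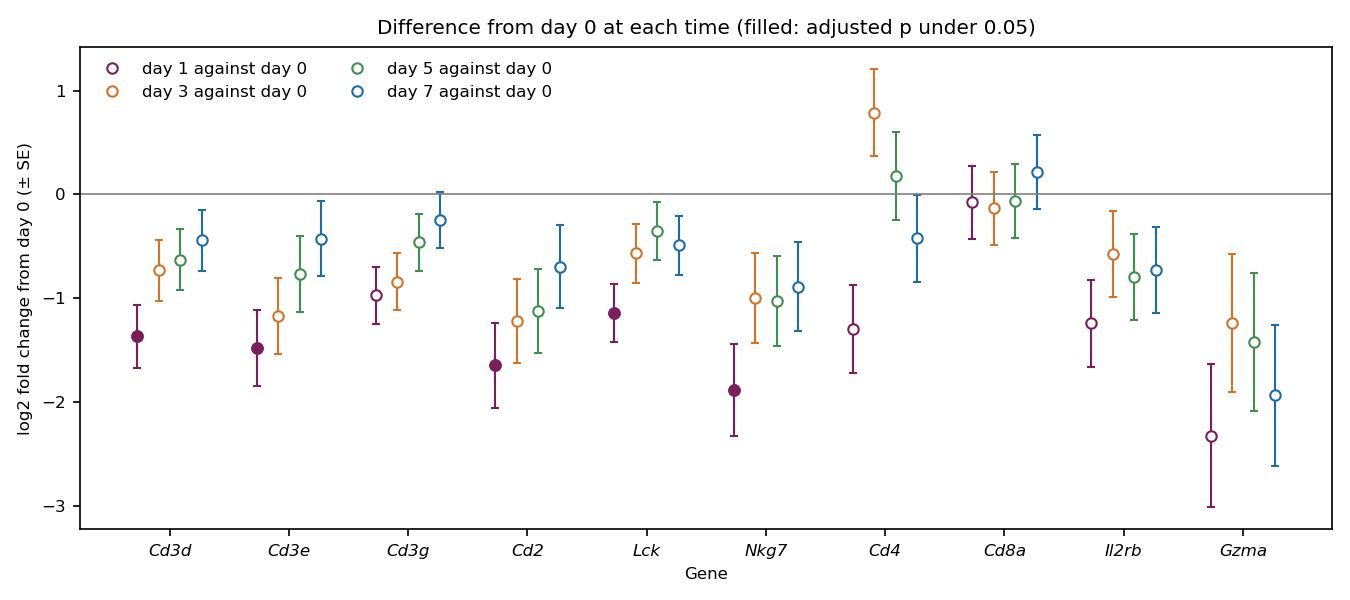
Log2 fold change from day 0 with its standard error (vertical axis) for each of the 10 genes (horizontal axis) at day 1, 3, 5 and 7; filled points have an adjusted p under 0.05 over all genes. The 5 filled points are all day 1 values, and the values of Cd3d, Cd3e and Cd3g come nearer to 0 from day 1 to day 7.

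Between neighbouring times edgeR called no member. From day 1 to day 3, 0 of 10 were called by edgeR, which called 0.00584% of all genes, and Cd4 alone had an unadjusted p under 0.05, against 12.8% of all genes. The median log2 difference was 0.60, beside -0.01 over all genes, with 9 of 10 positive. In 5 (Cd2, Lck, Nkg7, Cd4 and Il2rb) every day 3 library lay above every day 1 library, as in 11.6% of all genes. DESeq2 called Cd4 higher, with 1.31% of all genes called higher, at an adjusted p of 0.00034. From day 3 to day 5, 0 of 10 were called by edgeR (0.0233% of all genes) or by DESeq2 (3.32%), and from day 5 to day 7, 0 of 10 by edgeR (0.00584%) or by DESeq2 (0.985%), with no unadjusted p under 0.05 at either step, against 15.1% and 9.18% of all genes. From day 1 to day 7 all 10 had positive differences, with a median of 0.80 beside 0.03 over all genes. No member was called by edgeR, which called 5.75% of all genes higher and 8.59% lower, while 6 had an unadjusted p under 0.05 (Cd3d, Cd3e, Cd3g, Cd2, Lck and Nkg7), against 30.6% of all genes. Of these, 5 (all but Cd3e) had every day 7 library above every day 1 library, as 15.8% of all genes did. The log2 difference was 0.92 ± 0.30 for Cd3d, with an edgeR adjusted p of 0.056, and 1.05 ± 0.37 for Cd3e, with an edgeR adjusted p of 0.0745. DESeq2 called Cd3d, Cd3e and Cd3g higher, with 10.1% of all genes. Without day 7 replicate 3 edgeR called Cd3d and Cd3e higher. Without that library and day 5 replicate 2, a choice made after the data were seen, it called Cd2, Cd3d and Cd3e higher. In either direction these fits called 2319 and 3400 of all genes, against 2458 with every library. Both libraries were the lowest of their time for most members, so leaving them out raises the means of those members and is no separate support. Over all times DESeq2 called 8 of the 10 (all but Cd8a and Il2rb), with 34.5% of all genes.

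Beyond the members, the T cell receptor genes Cd247 and Trbc1 fell at day 1. Of 10 genes of the complex tested, which include the 3 CD3 members, 4 fell by edgeR (Cd3d, Cd3e, Cd247 and Trbc1). None rose, and the median log2 fold change was -1.12. DESeq2 called 6 lower, with Cd3g and Tcrg-C1 besides, where it called 7.70% of all genes lower. Cd247, the ζ chain that passes on the signal in both T and NK cells, was at 5.35, 7.26 and 8.02 CPM at day 0 and 3.69, 3.36 and 2.38 at day 1. Its log2 fold change was -1.13 ± 0.28, with an edgeR adjusted p of 0.0346. Trbc1, a constant segment of the receptor β chain, fell from 5.00, 5.87 and 7.70 to 2.76, 2.94 and 2.55 CPM, with a log2 fold change of -1.17 ± 0.22 and an edgeR adjusted p of 0.0148. Trbc1 and Trbc2 are near-identical copies, so their split is uncertain. Trbc2 had a mean of 13.85 CPM at day 0 and 11.85 at day 1. Its libraries overlapped (13.08 to 15.31 and 10.64 to 13.95 CPM), and edgeR did not call it. At day 7 Trbc2 was at 15.8 to 20.39 CPM, above every day 0 library. From day 1 to day 7 edgeR called Trbc1 and Trbc2 higher, 2 of the 10, with 5.75% of all genes. Among 30 genes of receptor signalling 3 fell by edgeR, Lck, Fyn and Themis, and none rose. At an unadjusted edgeR p under 0.05, 15 were lower and none higher, beside 2202 and 2431 of all 17136 genes. In 17 every day 1 library lay below every day 0 library (18.0% of all genes), and in 1 above (19.8%). DESeq2 called 11 lower and none higher, with 7.70% of all genes called lower. Fyn, a second Src family kinase that many cell types hold, had a log2 fold change of -0.54 ± 0.12 (edgeR adjusted p = 0.0266), and Themis, which sets signal strength in developing T cells, one of -1.72 ± 0.46 (edgeR adjusted p = 0.041). Zap70, the kinase that docks on the CD3 chains, was at 1.81, 3.34 and 4.43 CPM at day 0 and 1.73, 1.79 and 0.990 at day 1, and was not called (edgeR adjusted p = 0.152). Lat, the adaptor below it, had a log2 difference of -0.60 ± 0.34 (edgeR adjusted p = 0.271). Of 16 γδ T cell genes tested edgeR called 1 lower, Cd160, with a log2 fold change of -1.40 ± 0.36 (edgeR adjusted p = 0.0373), and none higher. That is near the share over all genes, 3.36% lower. DESeq2 called 4 lower (Cd160, Tcrg-C1, Tcrg-V5 and Trdv4), with 7.70% of all genes. In 7 every day 1 library lay below every day 0 library, against 18.0% of all genes, and 14 of the 16 differences were negative. Cd2 was the 1 gene of 24 surface and costimulation genes that fell, Eomes the 1 of 16 transcription factors, and of 12 regulatory T cell genes Lrrc32 rose. No other gene of these 3 lists was called by edgeR, and 1 call in a list of this size is near the shares over all genes, 3.36% lower and 4.22% higher. DESeq2 called lower 3 of 23 surface genes (Cd2, Cd27 and Cd28) and 2 of 15 transcription factors (Eomes and Ikzf3), with 7.70% of all genes. It called 3 of 12 regulatory T cell genes higher (Areg, Lrrc32 and Tnfrsf9), where 1505 of 16647 genes were higher.

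Most NK cell genes were lower at day 1, and the granule list split by gene. Of 16 NK cell genes edgeR called 1 lower and 1 higher, beside 3.36% and 4.22% of all genes. Their median log2 fold change was -1.13, with 12 negative. At an unadjusted edgeR p under 0.05, 10 were lower and 1 higher, as were 2202 and 2431 of all 17136 genes. In 11 every day 1 library lay below every day 0 library, against 18.0% of all genes. DESeq2 called 7 lower, with 7.70% of all genes, and 1 higher. Eomes, a transcription factor of NK cells and cytotoxic T cells, fell from 0.746, 1.65 and 3.51 to 0.464, 0.338 and 0.403 CPM, with an edgeR adjusted p of 0.0457. Ncr1, the NK cell receptor NKp46, was at 1.75, 2.18 and 5.30 CPM at day 0 and 0.891, 0.912 and 0.788 at day 1, with no overlap and an edgeR adjusted p of 0.0753. Il18rap, an interleukin-18 receptor chain that other leukocytes also express, rose, with a log2 fold change of 1.15 ± 0.28 (edgeR adjusted p = 0.0317). Of 16 cytotoxic granule genes tested 3 fell by edgeR (Nkg7, Prf1 and Ctsw) and 2 rose (Srgn and Stx11). DESeq2 called 6 lower, with Gzma, Gzmb and Fasl besides, and the same 2 higher. Prf1, perforin, fell from 3.41, 4.02 and 8.50 to 1.98, 1.59 and 1.32 CPM, a log2 fold change of -1.70 ± 0.43 (edgeR adjusted p = 0.0341). Gzmb, granzyme B, was at 5.80, 2.88 and 14.3 CPM at day 0 and 2.46, 2.50 and 3.43 at day 1, overlapping and not called (edgeR adjusted p = 0.117). Stx11, a fusion protein needed for granule release and also held by myeloid cells, rose, with a log2 fold change of 1.47 ± 0.18 (edgeR adjusted p = 0.005). Srgn, the proteoglycan of granules in many leukocytes, rose from 108, 54.4 and 61.7 to 340, 254 and 249 CPM (edgeR adjusted p = 0.00635).

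Among 13 tested genes of interleukin-2 and interleukin-15 signalling, edgeR called none at day 1. Il2rb (lower) and Myc (higher) had an unadjusted p under 0.05, DESeq2 called Il2rb lower, and the median log2 fold change was 0.12. Il2rg, the common γ chain, was at 36.5, 30.2 and 50.2 CPM at day 0 and 39.4, 36.1 and 45.7 at day 1, a log2 difference of 0.05 ± 0.25. The ligand gene Il15 was at 11.4, 11.7 and 11.6 CPM at day 0 and 8.92, 6.87 and 7.52 at day 7, where it fell, with a log2 fold change of -0.58 ± 0.13 and an edgeR adjusted p of 0.0241. It was the 1 gene of this list that edgeR called at day 7, where 676 of all 17136 genes were called lower. DESeq2 called 4 of the 13 lower (Il15, Il2rg, Stat5a and Stat5b), with 8.74% of all genes. From day 1 to day 7 edgeR called 6 lower (Il15, Il15ra, Il2rg, Jak1, Jak3 and Stat5a), with 8.59% of all genes. Over all times it called Il15, Il2rg (edgeR adjusted p = 0.0445) and Stat5a, with 13.9% of all genes.

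Markers of other leukocytes moved in different directions over the same libraries. Of 10 markers of dendritic and Langerhans cells edgeR called 4 lower at day 1 (Cd74, H2-Aa, H2-Ab1 and H2-Eb1, genes of antigen presentation). DESeq2 also called Clec9a lower, and all 10 differences were negative. The summed levels were 1054 to 1480 CPM against 2667 to 4759 at day 0. Most of that sum came from the 4 genes edgeR called, with means of 990, 467, 384 and 448 CPM (Cd74, H2-Aa, H2-Eb1 and H2-Ab1) over the 15 libraries. All 7 neutrophil markers rose, with sums of 825 to 1302 against 60.3 to 204 CPM. Of 10 genes of leukocytes in general 2 rose at day 1 (Cd53 and Arhgdib) and none fell, with sums of 1345 to 1493 against 1050 to 1393 CPM. Among 9 macrophage markers none was called at day 1 by edgeR, with 4 at an unadjusted p under 0.05, 2 called lower by DESeq2 (C1qa and Csf1r) and sums of 3076 to 4093 against 3369 to 5316 CPM. Of 6 B cell markers tested Cd79b and Blnk were lower, and of 7 mast cell markers Fcer1a rose, by edgeR and by DESeq2, with all 7 differences positive and sums of 292 to 389 against 237 to 280 CPM. Of 6 fibroblast markers Pdgfra rose and DESeq2 also called Col1a1 lower, while the fibroblast sums were 24050 to 51320 against 58940 to 69240 CPM. Of the 6 keratinocyte, 6 endothelial and 6 fat and muscle markers edgeR called none, with 2, 1 and 1 at an unadjusted p under 0.05 and 2, 1 and 0 called by DESeq2. Fat and muscle markers were thus still detected in the cleaned tissue, with sums of 4482 to 6130 against 5233 to 7206 CPM at day 0. At day 7 their sums were 2060 to 4279 CPM, and edgeR called Acta1 lower, 1 of the 6, beside 676 of all 17136 genes. No marker of these lists was at 0 in all libraries. The part of these shifts in the CPM of the T and NK cell genes was not tested.

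**Figure D3:**
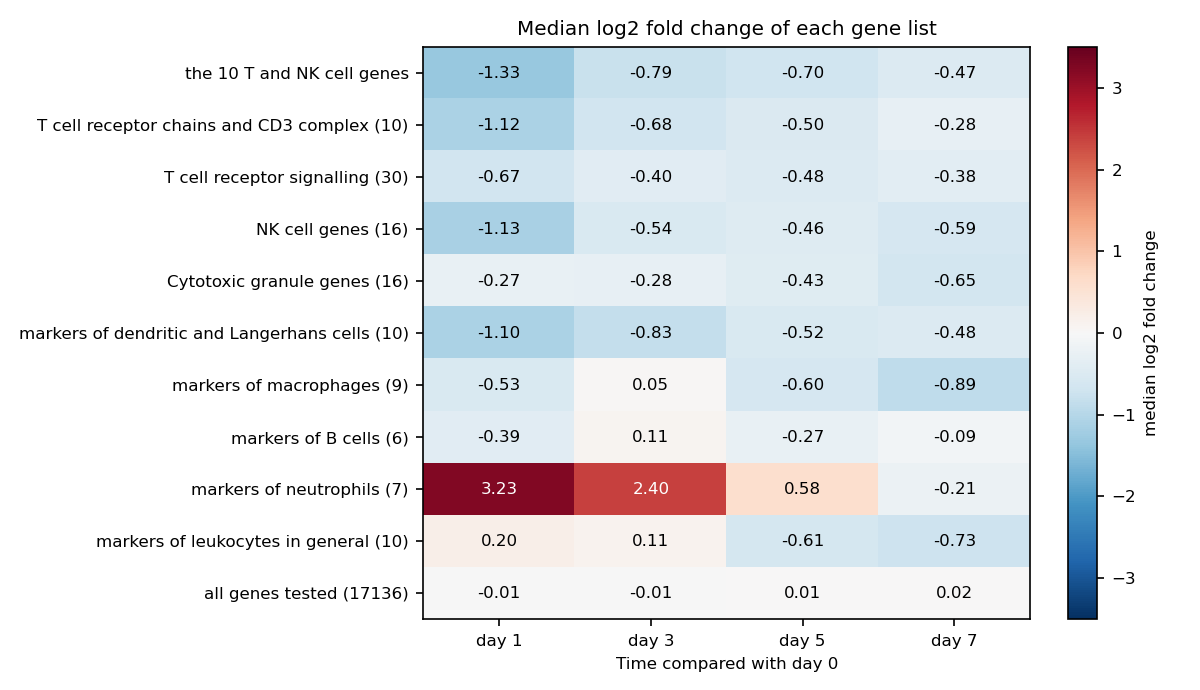
Median log2 fold change from day 0 (colour and printed value) of gene lists (rows, with the number of genes tested) at day 1, 3, 5 and 7 (columns). The rows of the 10 genes (-1.33), NK cell genes (-1.13), T cell receptor chains (-1.12) and dendritic markers (-1.10) have their lowest value at day 1. So do the rows of receptor signalling (-0.665) and B cells (-0.386), where neutrophil markers are at 3.23.

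Ratios within a library do not depend on its scaling. The summed CD3 chains made up 1.35, 2.13 and 1.90% of the summed leukocyte genes in the day 0 libraries and 0.749, 0.809 and 0.497% at day 1, with no overlap. The share was 1.11, 0.535 and 0.973% at day 3, 1.37, 2.21 and 1.86% at day 5 and 1.94, 2.58 and 2.24% at day 7. The day 3 libraries also lay below every day 0 library, and those of day 5 and 7 overlapped day 0. The summed leukocyte genes were themselves lower at those times, at 579 to 976 CPM at day 5 and 579 to 907 at day 7 against 1050 to 1393 at day 0. The CD3 sum alone was 15.1, 22.4 and 26.4 CPM at day 0, 12.4, 12.8 and 18.1 at day 5 and 17.6, 20.5 and 13.0 at day 7. The log2 ratio of Cd4 to Cd3e was 1.15, 1.36 and 1.34 at day 0 and 1.29, 0.979 and 2.24 at day 1. At day 3 it was 3.71, 3.12 and 2.73, above every library of day 0, 1 and 7. It was 3.03, 1.37 and 2.11 at day 5 and 1.503, 0.947 and 1.63 at day 7. These ratios were not tested.

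**Figure D4:**
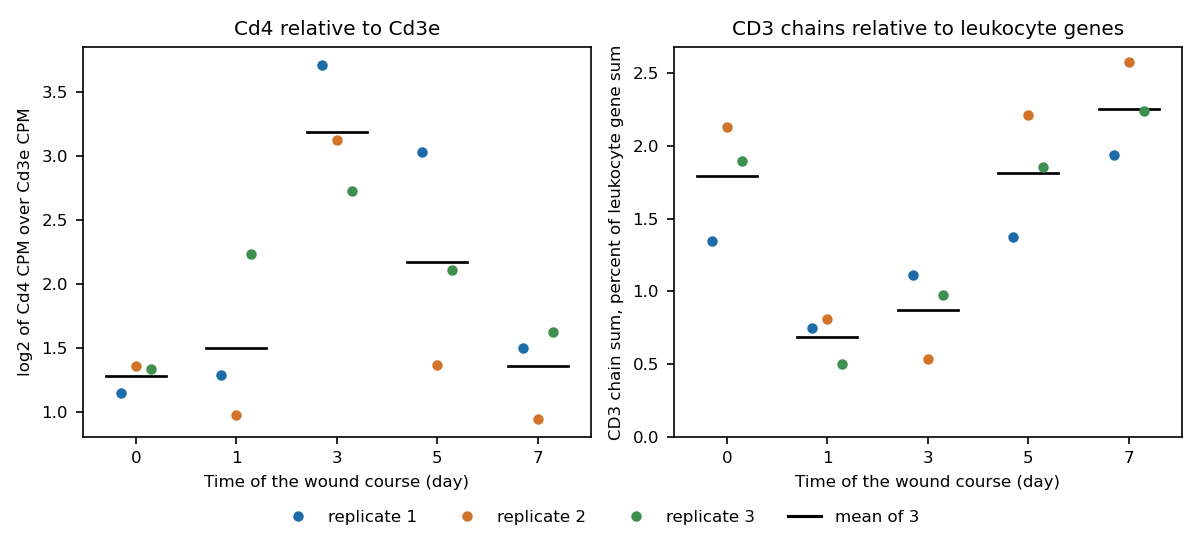
Left, log2 ratio of Cd4 to Cd3e CPM; right, summed CPM of Cd3d, Cd3e and Cd3g as a percent of the summed CPM of 10 leukocyte genes; both by day (horizontal axis), with 1 point per library and a bar for the mean of 3. The ratio is highest at day 3, from 2.73 to 3.71, and the CD3 share is lowest at day 1, from 0.497% to 0.809%.

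Across the 15 libraries most members moved with one another, described here by correlations of log2 CPM that have no p because the libraries share their times. The correlation of a member with the mean of the other 9 was highest for Nkg7 (Pearson r = 0.964) and Cd2 (r = 0.942) and lowest for Cd8a (r = 0.323) and Cd4 (r = 0.479). Within times, after each time's mean was removed, the values were 0.961 for Cd2, 0.921 for Nkg7, 0.865 for Il2rb, 0.679 for Cd3e, 0.675 for Lck, 0.664 for Gzma, 0.647 for Cd3d, 0.561 for Cd8a, 0.530 for Cd4 and 0.517 for Cd3g. The co-receptor genes were thus lowest with all times pooled, and Cd3g was lowest within times. Cd3e moved with Cd3d (r = 0.902) and Cd3g (r = 0.907), and less with Gzma (r = 0.507) and Cd4 (r = 0.348). Gzma was closest to Nkg7, at r = 0.865. Cd4 had its highest values among the marker lists with B cells (r = 0.734), macrophages (0.699) and endothelium (0.592), where Cd3e had 0.181, 0.167 and -0.382. With the dendritic list the order was the other way, at 0.565 for Cd4 and 0.876 for Cd3e.

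The genes most like the mean of the 10 over the 15 libraries, among 14614 candidates, were Ctsw (r = 0.952), Skap1 (0.948), H2-Aa (0.946), H2-Eb1 (0.938), Cd74 (0.930), H2-Ab1 (0.926), Ptprcap (0.914), Sh2d2a (0.911), Clec9a (0.908) and Col20a1 (0.901). Ctsw encodes a cysteine protease of NK and cytotoxic T cells, and Skap1 an adaptor of the T cell receptor pathway. H2-Aa, H2-Ab1, H2-Eb1 and Cd74 encode the MHC class II chains and their invariant chain, which present antigen to CD4 T cells, and Clec9a a receptor of cross-presenting dendritic cells. H2-Aa was at 486, 722 and 950 CPM at day 0 and 257, 283 and 202 at day 1, a log2 fold change of -1.54 ± 0.37 with an edgeR adjusted p of 0.0293. Without the 2 libraries farthest from the median of the mean (day 0 replicate 3 and day 1 replicate 3), r was 0.899 for Ctsw, 0.892 for Skap1 and 0.936 for H2-Aa, and 0.775 for Col20a1. Cd4 on its own, a choice made after its values were seen, was most like Ushbp1 (r = 0.922), Bmp1 (0.917) and Klc4 (0.917). Mertk (0.914) came next, and it is also 1 of the 9 macrophage markers, so the 2 correlations are not separate. Klhl6, Tbc1d8, Angptl2, Comp, Vav2 and Selenop followed, at 0.913 to 0.891.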

How the data were processed

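The authors deposited, for each library, a file of estimated counts by gene symbol. The submitters' processing notes name kallisto 0.43. How transcripts were summed to genes, and with which index and annotation, is not given in the sources used here. The counts were whole as deposited. Per file 26 rows named by dates, 0.155% to 0.179% of the counts, were left out. Library totals were 38062562 to 60450396 and the common biological coefficient of variation was 30.9%, so counting error was small beside replicate spread except for the lowest counts.

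One edgeR 4.0.16 quasi-likelihood model (limma 3.58.1, R 4.3.3) was fitted to all 15 libraries with TMM scaling, the expression filter at a minimum count of 10, robust dispersion and Benjamini-Hochberg adjustment over 17136 genes. Contrasts are two-sided. SE is the absolute log2 fold change over the square root of F, and 95% intervals used 10 residual degrees of freedom. DESeq2 1.42.0, another scaling, no filter, a replicate block, non-robust dispersion, libraries left out and fits of 2 times were alternatives. The script was tested on simulated data. The 22 gene lists held 265 genes, of which 262 were matched. Correlations used log2 CPM with a prior count of 2. The members and lists were chosen with earlier results of these data known. Named genes were the members, up to 4 called genes per list with the largest change (or up to 2 with the smallest p), direct partners of members, and the 10 genes most like the members' mean with at least 1 CPM. Not all genes the rule allows are described, and that selection, like the promoter motifs, was made with values in view. Promoter sequences and their coordinates are from RefSeq (GRCm38.p6). The build behind the counts is not given in the sources used here.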

Additional observations from a re-analysis of the deposited data

Results flagged for a closer look

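The mean of Cd4 at day 3 was 22.4 CPM, with 3 of 3 libraries above the day 0 mean, while at day 1 and at day 7 all 3 libraries lay below it. The difference between day 3 and day 1 was tested, with a log2 value of 2.08 ± 0.44, an edgeR adjusted p of 0.104 and a DESeq2 adjusted p of 0.00034, and over the edgeR alternatives the adjusted p ran from 0.0692 to 0.439. The difference between day 3 and day 7 was not tested. Day 3 replicate 1 held the highest Cd4 value, and without it the log2 difference from day 1 was 1.64.

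The mean of Cd8a at day 7 was 1.57 CPM, with 3 of 3 libraries above the day 0 mean of 1.34, while at day 3 all 3 lay below it. The day 0 libraries ran from 0.709 to 1.87 CPM and covered the day 3 values, and the difference between day 7 and day 3 was not tested.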

How the results depend on the processing

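The number of the 10 genes called at day 1 against day 0, 5 in the report, was 5 with the scaling of DESeq2 in edgeR, with no expression filter and with non-robust dispersion. It was 9 by DESeq2, 3 in a fit of the 2 times alone (Cd2, Cd3e and Cd3g), 0 when replicate 1 alone stood for day 0, and 0 to 8 with 1 library left out. DESeq2 called 1 gene at day 3, 1 at day 7, 1 from day 1 to day 3, 3 from day 1 to day 7 and 8 over all times, where edgeR called 0, 0, 0, 0 and 1. Over all times edgeR called 0 with no filter, 0 when replicate 1 alone stood for day 0 and 0 to 6 with 1 library left out. From day 1 to day 7 it called 0 to 2 with 1 library left out. Without day 5 replicate 2 and day 7 replicate 3, an alternative chosen after the data were seen, it called 3 from day 1 to day 7 and 4 over all times. Of the 5 genes called at day 1, none changed direction under an alternative. The causes were not tested. With a replicate block 2 members were called at day 1 (Cd3d and Lck) and 0 over all times. Libraries with the same number had correlations of their deviations from -0.729 to 0.486, with 13 of 30 pairs over 0.1. The mean was 0.0343, against -0.0156 for libraries with other numbers, and their own number correlated best in 24 of 60 checks. With 3 libraries a time these values cannot decide whether the numbers pair the libraries. Depth limits Cd8a most in counting terms, with 28 to 94 counts a library.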

Other observations

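Among genes of lymphocyte traffic and T cell cytokines, some rose at day 1, when none of the 10 genes above did. By edgeR 2 of 16 cytokines, 1 of 14 chemokines and 1 of 20 homing receptors were called higher, and none lower. In lists of this size 1 call is near the share over all genes, 4.22% higher. DESeq2 called 6 of 15 cytokines higher and 2 lower, Ccl5 and Xcl1, where 1505 of 16647 genes were higher and 1281 lower. Cxcl12, a chemokine of dermal stromal cells, rose from 195, 209 and 262 CPM at day 0 to 510, 502 and 628 at day 1 and 796, 520 and 349 at day 3, with edgeR adjusted p of 0.016 and 0.0423. Its receptor gene Cxcr4 was higher at day 3, at 28.2, 44.5 and 31.3 against 9.15, 10.8 and 17.3 CPM (edgeR adjusted p = 0.0364). Tnfsf11, the RANK ligand gene, was at 0.298, 0.304 and 0.496 CPM at day 0 and 4.65, 3.97 and 4.34 at day 1, with an edgeR adjusted p of 0.005, and stayed above the day 0 libraries at each later time. Tnfsf14, the LIGHT gene, rose at day 1 (log2 fold change 1.86 ± 0.21) and fell below day 0 at day 7 (-0.88 ± 0.21), with edgeR adjusted p of 0.00317 and 0.031.

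At day 7 some genes of the cytokine, chemokine, homing receptor and macrophage lists were below day 0, where edgeR called no CD3 gene. Called lower by edgeR were 2 of 16 cytokines, 1 of 14 chemokines and 4 of 20 homing receptors. It called 1 cytokine higher, and 676 of all 17136 genes lower and 532 higher. The chemokine receptor gene Ccr2 fell, with a log2 fold change of -1.39 ± 0.26 and an edgeR adjusted p of 0.015. Il10, the gene of an anti-inflammatory cytokine, was at 4.10, 1.65 and 2.00 CPM at day 0 and 1.01, 0.590 and 0.716 at day 7 (edgeR adjusted p = 0.0208). Cxcl10, an interferon-induced chemokine for T cells, was at 45.4, 11.1 and 21.6 CPM at day 0 and 5.17, 4.72 and 8.41 at day 7 (edgeR adjusted p = 0.0184). The highest day 0 value of Il10 and of Cxcl10 was that of replicate 1, the day 0 library with the high Krt6a level. Of 9 macrophage markers 5 fell at day 7 (C1qa, C1qb, C1qc, Cd68 and Mrc1), where 676 of all 17136 genes were called lower. Whether the time course of these genes differs from that of the CD3 genes was not tested.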
